A study of Danio rerio with 6 samples.

Results

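The genes described here are 9 transcription factor genes of the blood lineages of the zebrafish, *gata1a*, *klf17*, *gfi1aa*, *gata2a*, *tal1*, *lmo2*, *spi1b*, *runx1* and *myb*. They were taken by name from a table of 30111 genes, of which 27018 were mRNAs outside the lncRNA table, and all 9 were found. Total RNA of whole wild-type embryos of the AB line was depleted of rRNA and sequenced at T1 (10 hpf), T2 (24 hpf) and T3 (36 hpf), where hpf stands for hours post-fertilization. There were 2 libraries per stage, called replicates 1 and 2. Each stage began as a pool of 100 embryos that was split at random for the 2 libraries, and separate clutches are not mentioned. All 6 libraries came from untreated embryos, so that the stages were compared with each other, T2 with T1, T3 with T2 and T3 with T1.

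In the zebrafish, the first blood cells arise in the lateral mesoderm. Its posterior part forms the primitive red cells and the anterior part the first macrophages, while blood stem cells later bud from the wall of the dorsal aorta. Transcription factors set these fates, and the same factor often serves in several blood and vessel lineages. *tal1* and *lmo2* encode partners in a DNA-binding complex of the common precursors of blood and vessels, and GATA factors join that complex. Gata1 drives the red cell program and Spi1 (PU.1) the myeloid program, and each is known to hold back the other. Runx1 and Myb are needed for blood stem cells. Several of the 9 genes are also active outside blood.

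The values were RPKM, that is reads per length of exon in kilobases, divided by the library's reads in genes. The libraries held between 43611332 and 51846237 reads in genes, and a count of 0 in a gene of 1 kb allowed a level of up to 0.0579 RPKM in the deepest library and 0.0688 RPKM in the shallowest (3 counts each). This limit and the intervals on reads below cover counting error only. They take reads as independent, and it is not known here whether both mates of a pair were counted apart. Red cell genes, which mark blood, were low at T1 and high at T2 and T3. The summed level of 22 erythroid effector genes was 56.2 and 55.3 RPKM at T1, 866 and 733 RPKM at T2 and 1563 and 1544 RPKM at T3. The embryonic globin genes *hbae1.3*, *hbae3*, *hbbe1.1*, *hbbe1.2*, *hbbe1.3* and *hbbe3* each had under 4 RPKM in both T1 libraries. In whole embryos, fewer cells of a type and less RNA per cell cannot be told apart.

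The 2 T1 libraries stood apart from each other, and *spi1b*, *lmo2* and *tal1* were among the genes that differed most. At T1, 3 of the 9 genes were over 2-fold apart between replicates 1 and 2 on the log2(RPKM + 0.5) scale, and 3.52% of 19952 mRNAs were. At T2 and T3 none of the 9 was, and the shares of all mRNAs were 0.218% and 0.187%. The largest gap was that of *spi1b*, with 549 reads in T1 replicate 1 and 63 reads in T1 replicate 2. Its ratio of replicate 1 to replicate 2 was 9.05 in RPKM (exact 95% interval 6.96 to 11.9), and its log2 difference of 2.41 lay at percentile 99.9 of all mRNAs by size. The ratio was 3.42 for *lmo2* (3.03 to 3.88), 2.77 for *tal1* (2.42 to 3.18), 3.21 for *gata1a* (2.16 to 4.87) and 4.08 for *runx1* (2.29 to 7.75), the last from 59 and 15 reads. It was 2.16 for *myb* (1.91 to 2.46) and 1.96 for *gfi1aa* (1.60 to 2.40). *gata2a* lay the other way, at 0.780 (0.725 to 0.839), and so did *klf17*, at 0.807 (0.746 to 0.873). By size, the log2 differences of *gata2a* and *klf17* lay at percentiles 65.7 and 60.3 of all mRNAs only. Thus 7 of the 9 genes were higher in T1 replicate 1 and 2 were higher in T1 replicate 2. All 9 gaps were wider than counting error. Gaps wider than counting error were not limited to T1. At T2 the interval of *tal1* (1.25 to 1.62) left out 1, and so did those of *gata1a*, *lmo2*, *klf17*, *spi1b* and *myb*. Those of *gata2a* (0.873 to 1.22), *runx1* and *gfi1aa* held it. At T3 the intervals of *klf17*, *spi1b* and *runx1* left out 1, and those of the other genes held it.

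Genes of other lists did not all follow this gap. Of the genes over 0.1 RPKM in both T1 libraries, replicate 1 was the higher one for 10 of 14 endothelial genes (median log2 difference 0.34), for 6 of 7 hatching gland genes (0.21), for 12 of 17 erythroid effector genes (0.10) and for 13 of 28 partner and paralog factors (−0.02). It was also the higher one for 3 of 5 myeloid effector genes (0.04), of which 1 was over 2-fold apart. The median was 0.86 over the 8 blood factors that met this limit, and 0.06 over all mRNAs. Among single genes with a wide gap were *lcp1*, the gene of the leukocyte actin bundler L-plastin, with 93.0 and 34.1 RPKM in T1 replicates 1 and 2, and *kdrl*, a VEGF receptor gene of vessels, with 1.70 and 0.567 RPKM. In all, 2 endothelial genes, 1 hatching gland gene and 1 erythroid effector gene were over 2-fold higher in replicate 1. Another erythroid effector gene was over 2-fold higher in replicate 2. What these libraries differ in besides was not tested. Each result against T1 is therefore given below with both T1 libraries and with either of them left out.

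**Figure D1:**
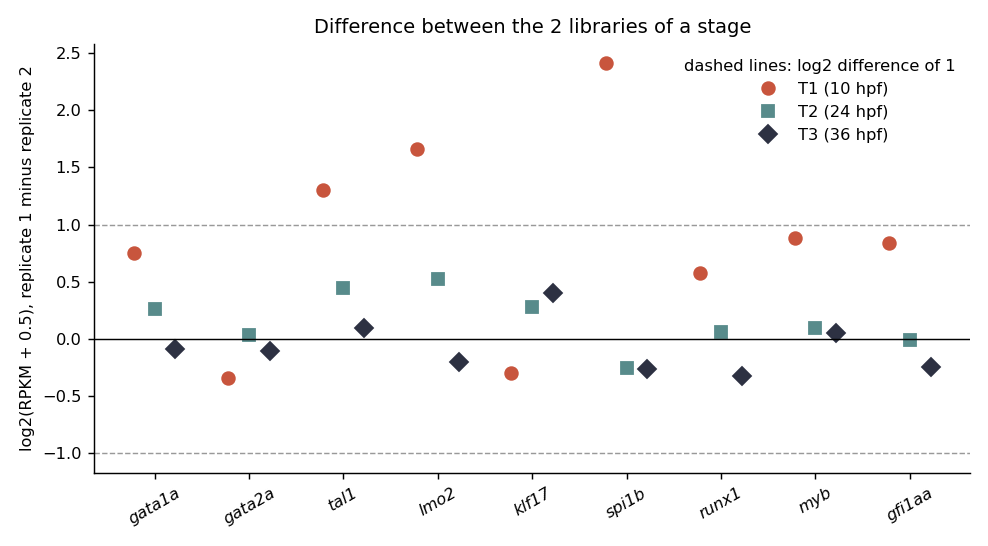
Difference between the 2 libraries of a stage for each of the 9 genes, as log2(RPKM + 0.5) of replicate 1 minus replicate 2. At T1 (circles) *spi1b*, *lmo2* and *tal1* lie above the dashed line at 1, while at T2 (squares) and T3 (diamonds) all 9 genes lie between the dashed lines.

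Stages were tested with limma on log2(RPKM + 0.5), over the mRNAs with at least 0.1 RPKM in at least 2 of the 4 libraries of the stages compared. All 9 genes passed this filter in the 3 comparisons. A gene was called upregulated or downregulated at a Benjamini-Hochberg adjusted *p* under 0.05 over all mRNAs tested together with a log2 fold change above 1 in size. Fold changes on this scale understate the change of low genes. The *p* values reflect the spread among these libraries only, and this spread may be technical, while an exact permutation test of 2 libraries against 2 cannot give a *p* below 0.333.

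Of the red cell factors, *gata1a* had low deposited values throughout. It lies on chromosome 11 (GRCz11, 25411912 to 25418858, minus strand, 6 exons) and encodes the zinc finger factor that activates globin and heme genes. It had 0.725 and 0.226 RPKM in T1 replicates 1 and 2, 1.09 and 0.830 RPKM at T2 and 0.525 and 0.586 RPKM at T3. Both T2 libraries were thus above the other 4, and the T3 values lay between the 2 T1 values. The log2 fold change of T2 against T1 was 0.63 (SE 0.29, limma adjusted *p* = 0.153), and that of T3 against T2 was −0.46 (SE 0.13, limma adjusted *p* = 0.0310), less than the fold asked for. Against T1 replicate 2 alone the T2 value was 1.0. Against T1 replicate 1 alone it was 0.25. T3 against T1 gave 0.16 (limma adjusted *p* = 0.650) with both T1 libraries, 0.54 with replicate 2 alone and −0.22 with replicate 1 alone. The gene is annotated a second time, with the same 1661 exon bases, on an alternate scaffold. The deposited values rest on the summed length of both copies, 3322 bases, and per length of the chromosome copy they are 2 times as large. For reads matching both copies, the way of counting is not given in the sources used. The true level of *gata1a*, low in these values, is therefore uncertain.

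*klf17*, formerly named *biklf*, had the highest level of the 9 genes at T1 and was lower at each later stage. It encodes a Krüppel-like factor known in zebrafish from the blood island and the hatching gland, and lies on chromosome 2 (33326537 to 33328688, plus strand, 3 exons). Its level was 16.1 and 19.9 RPKM at T1, 6.70 and 5.43 RPKM at T2 and 2.57 and 1.82 RPKM at T3. No 2 stages overlapped. It was downregulated at T2 against T1 with a log2 fold change of −1.49 (SE 0.17, limma adjusted *p* = 0.00454). It was again downregulated at T3 against T2, with −1.29 (SE 0.16, limma adjusted *p* = 0.00133). The whole interval gave −2.79 (SE 0.20, limma adjusted *p* = 0.000783). Without T1 replicate 1 or 2 the T2 value was −1.65 or −1.34 and the T3 value against T1 was −2.94 or −2.64. All stayed calls. The T2 call against T1 was lost without either T2 library, in fits that take the spread from the T1 libraries alone.

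*gfi1aa* was downregulated at both later stages against T1. It encodes a zinc finger repressor of the primitive red cells of the zebrafish, on chromosome 2 (10766744 to 10785640, plus strand, 7 exons). Its level was 4.43 and 2.26 RPKM at T1, 0.351 and 0.356 RPKM at T2 and 0.181 and 0.305 RPKM at T3. This amounts to 281 and 149 reads in T1 embryos, but 25 and 25 reads in T2 and 13 and 23 reads in T3 embryos, so that the later stages rest on few reads. Both T1 libraries were above all later ones, and the T3 libraries were below the T2 libraries. The log2 fold change was −2.11 at T2 against T1 (SE 0.31, limma adjusted *p* = 0.00800) and −2.32 at T3 against T1 (SE 0.31, limma adjusted *p* = 0.00414). Between T3 and T2 it was −0.21 (limma adjusted *p* = 0.211). Without T1 replicate 1 or 2 the calls held, at −1.69 or −2.53 for T2 and −1.90 or −2.73 for T3 against T1. They were lost when either library of the later stage was left out, in fits that take the spread from the T1 libraries alone.

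The factors of the common precursors followed separate courses. *gata2a*, a GATA factor gene of blood precursors, vessel wall and other embryonic tissues, lies on chromosome 11 (3847883 to 3865612, minus strand, 8 exons). Its level was 9.07 and 11.6 RPKM at T1, 1.86 and 1.80 RPKM at T2 and 3.58 and 3.88 RPKM at T3. The stages did not overlap, and T2 was the lowest. It was downregulated at T2 against T1 with a log2 fold change of −2.21 (SE 0.17, limma adjusted *p* = 0.00186). T3 was higher than T2 by 0.86 (SE 0.09, limma adjusted *p* = 0.000805), which misses the fold of 1. With limma voom on the reads recovered from RPKM the same difference was 1.03 and became a call. T3 stayed below T1, with −1.35 (SE 0.16, limma adjusted *p* = 0.00287). Without T1 replicate 1 or 2 the calls held, at −2.38 or −2.04 for T2 and −1.52 or −1.18 for T3 against T1. They were lost when either library of the later stage was left out, in fits that take the spread from the T1 libraries alone.

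*tal1*, a bHLH factor gene on chromosome 22 (16535585 to 16545329, plus strand, 4 exons), showed no called difference with all libraries kept. Its level was 6.84 and 2.47 RPKM at T1, 4.59 and 3.23 RPKM at T2 and 3.21 and 2.97 RPKM at T3. The T1 libraries enclosed all 4 later values. The log2 fold change of T2 against T1 was −0.10 with a 95% confidence interval from −1.27 to 1.07, so that neither a rise nor a fall of more than 2-fold can be told from no change here. Against T1 replicate 1 alone the values were −0.75 at T2 and −1.03 at T3. Against T1 replicate 2 alone they were 0.55 and 0.27, in the other direction.

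*lmo2* encodes a LIM-only protein that bridges Tal1 and GATA factors and binds no DNA itself. It lies on chromosome 18 (38288980 to 38296665, plus strand, 3 exons). Its level was 14.8 and 4.33 RPKM at T1, 4.03 and 2.65 RPKM at T2 and 1.76 and 2.10 RPKM at T3. No 2 stages overlapped, but the lower T1 value was close to the higher T2 value. The T2 value against T1 was −1.19 (SE 0.57, limma adjusted *p* = 0.159), no call. Against T1 replicate 1 alone it was −2.02, and against T1 replicate 2 alone it was −0.35. T3 against T1 was downregulated with −1.83 (SE 0.56, limma adjusted *p* = 0.0456). This last call is close to its limits. Without T1 replicate 1 the log2 fold change was −0.996 and the call was lost, without T1 replicate 2 it was −2.66, and with a pseudocount of 1 RPKM the limma adjusted *p* was 0.0512. T3 against T2, which uses no T1 library, gave −0.64 (SE 0.18, limma adjusted *p* = 0.0285), less than the fold asked for.

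The ratio of *lmo2* to *tal1* shifted with stage, and a level that both genes share within a library cancels in it. It was 2.17 and 1.76 in T1 embryos, then 0.879 and 0.822 in T2 embryos, then 0.549 and 0.706 in T3 embryos. The 3 stages did not overlap, although both genes differed more than 2-fold between the T1 libraries. The ratio of *gata2a* to *gata1a*, per length of the chromosome copy, was 6.26 and 25.7 in T1 embryos, then 0.848 and 1.08 in T2 embryos, then 3.41 and 3.31 in T3 embryos. With the deposited lengths the same ratio was 12.5 and 51.4 in T1 embryos, then 1.695 and 2.168 in T2 embryos, then 6.83 and 6.61 in T3 embryos. It was thus lowest at T2 with either length, and near 1 there only per length of the chromosome copy. How reads matching both copies of *gata1a* were counted is not known here, so that the size of this ratio is uncertain at every stage. The ratio of *spi1b* to *gata1a*, per length of the chromosome copy and with the same uncertainty, did not separate the stages. It was 3.60 and 1.28 in T1 embryos, 1.26 and 2.04 in T2 embryos, and 1.95 and 2.19 in T3 embryos. These ratios were formed after the values had been seen, and they are descriptions with no test.

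*spi1b* encodes PU.1, the ETS factor of the first macrophages and granulocytes. Its level was 5.22 and 0.577 RPKM at T1, 2.76 and 3.38 RPKM at T2 and 2.05 and 2.57 RPKM at T3. The 4 later libraries lay close together, between the 2 values of T1. With both T1 libraries no difference was called, with log2 fold changes of 0.52 at T2 against T1 (SE 0.78, limma adjusted *p* = 0.630) and 0.17 at T3 against T1 (SE 0.80, limma adjusted *p* = 0.873). The direction depended on the T1 library. Against T1 replicate 2 alone *spi1b* was higher at both later stages, by 1.72 at T2 and 1.38 at T3. Against T1 replicate 1 alone the T2 value was −0.68 and the T3 value −1.03. T3 against T2 gave −0.35 (SE 0.13, limma adjusted *p* = 0.0784).

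The gene lies on chromosome 7 (32644673 to 32659390, minus strand, 6 exons), and 528 of its 2413 exon bases are shared with the gene *ch73-314g15.3* on the plus strand. Use of the strand in counting is not stated in these sources, so that reads of the shared bases cannot be assigned with certainty. *ch73-314g15.3* had 3.09 and 2.32 RPKM at T1, 2.09 and 2.31 RPKM at T2 and 1.67 and 1.79 RPKM at T3. It did not show the gap of *spi1b* at T1. None of the other 8 genes shared exon bases with another gene or lncRNA within 1000 bases.

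Of the stem cell factors, *runx1* had few reads in these whole embryos. It lies on chromosome 1 (1361974 to 1402588, minus strand, 7 exons) and encodes the Runt factor needed for stem cells to leave the aorta wall. Its level was 0.391 and 0.0957 RPKM at T1, 0.254 and 0.221 RPKM at T2 and 0.316 and 0.524 RPKM at T3, from 15 to 94 reads. The T3 libraries were above the T2 libraries, and the T1 values lay on both sides of the T2 values. The log2 fold change was 0.02 at T2 against T1 (SE 0.21, limma adjusted *p* = 0.956), and its direction reversed with the scaling of the libraries, at −0.26 with quantile normalization and −0.32 with median centring. It was 0.31 at T3 against T2 (SE 0.14, limma adjusted *p* = 0.113), and 0.33 at T3 against T1 (SE 0.24, limma adjusted *p* = 0.304), so that no change of *runx1* was called. Its levels lie near or below the pseudocount of 0.5 RPKM, which shrinks its fold changes. Over the other settings with all libraries kept, the value ran from 0.19 to 0.78 at T3 against T2 and from −0.024 to 1.07 at T3 against T1, without a call. Against T1 replicate 2 alone the values were 0.31 at T2 and 0.62 at T3, and against T1 replicate 1 alone −0.27 and 0.04.

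*myb* was the gene of the set that was upregulated. It encodes a factor of blood progenitors that also acts in other dividing cells, and lies on chromosome 23 (31815423 to 31830043, plus strand, 16 exons). Its level was 2.83 and 1.31 RPKM at T1, 6.39 and 5.96 RPKM at T2 and 5.11 and 4.91 RPKM at T3. The stages did not overlap. The log2 fold change was 1.44 at T2 against T1 (SE 0.31, limma adjusted *p* = 0.0227) and 1.17 at T3 against T1 (SE 0.31, limma adjusted *p* = 0.0314). For T3 against T2 it was −0.28 (SE 0.08, limma adjusted *p* = 0.0292), less than the fold asked for. Without T1 replicate 1 the T2 value was 1.88 and the T3 value 1.61, both calls. Without T1 replicate 2 the T2 value was 1.0 and still a call, and the T3 value was 0.72 and was not. Both calls were also lost without either library of the later stage, in fits that take the spread from the T1 libraries alone. Quantile normalization and median centring also brought the T3 value below 1, to 0.92 and 0.81. *myb* too has a second copy on an alternate scaffold, so that its deposited length is 6156 bases, against 3317 bases on the chromosome.

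**Figure D2:**
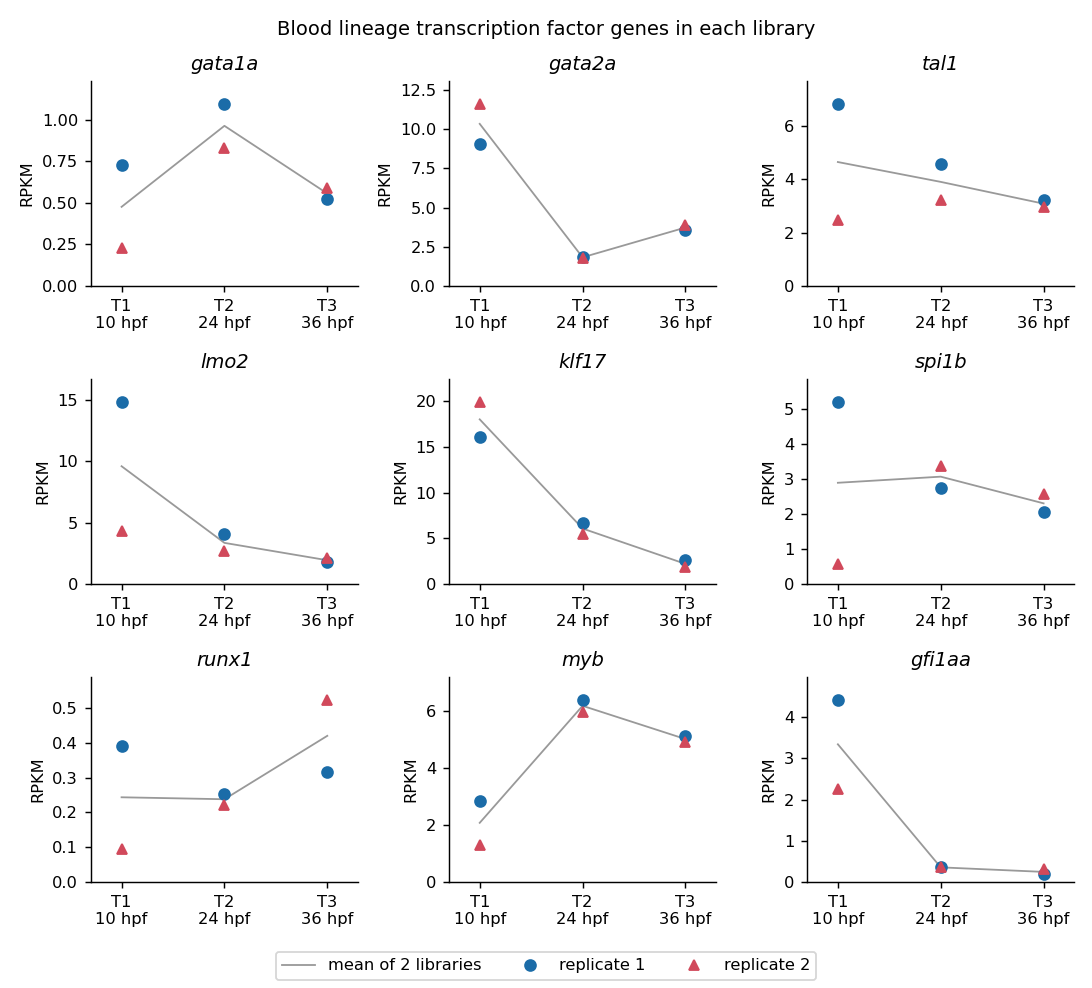
RPKM of the 9 genes in each library by stage, with replicate 1 as circles, replicate 2 as triangles and a grey line through the mean of the 2 libraries. Each panel has its own axis from 0. *klf17* and *gfi1aa* decline, *gata2a* is lowest at T2, *myb* is highest at T2, and the 2 T1 values of *spi1b* (5.22 and 0.577 RPKM) enclose all later ones.

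Set side by side, 4 of the 9 genes were called at T2 against T1, 1 upregulated (*myb*) and 3 downregulated (*gata2a*, *klf17* and *gfi1aa*). Of all 23028 mRNAs tested, 16.3% were called, 12.8% upregulated and 3.45% downregulated. The median log2 fold change of the 9 genes was −0.10, and that of all mRNAs was 0.08. The downward share among all mRNAs depends on scaling, with 2953 upregulated and 795 downregulated as given, 2119 and 1422 with quantile normalization, and 1976 and 2070 with median centring. Median centring lowered every T2 value against T1 by 0.33, and the 4 genes called were the same in number under both scalings. Over the 5192 mRNAs with a mean of at least 10 RPKM, the library medians of T2 and T1 differed by only 0.003. Over the fits that leave out 1 library, the log2 fold change stayed between −2.38 and −2.04 for *gata2a* and between −1.65 and −1.34 for *klf17*. It stayed between −2.53 and −1.69 for *gfi1aa* and between 1.0 and 1.88 for *myb*. Calls were gained without a T1 library and lost without a T2 library, in fits that take the spread from the other stage alone. The number of calls over all mRNAs also moved widely between these fits.

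At T3 against T2, 1 of the 9 genes was called, *klf17*, which was downregulated. Of 23161 mRNAs, 6.14% were called, 4.03% upregulated and 2.11% downregulated. The median log2 fold change of the 9 genes was −0.28, against −0.08 for all mRNAs. The adjusted *p* of limma was under 0.05 for *gata1a*, *gata2a*, *lmo2* and *myb* as well, at changes of less than 2-fold. *klf17* stayed the single call whichever of the 4 libraries was left out.

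At T3 against T1, 5 of the 9 genes were called, *myb* upregulated and *gata2a*, *lmo2*, *klf17* and *gfi1aa* downregulated. Of 23133 mRNAs, 25.9% were called, 17.2% upregulated and 8.76% downregulated. This split also moved with scaling, from 3968 upregulated and 2026 downregulated as given to 2879 and 4177 with median centring, which lowered every T3 value against T1 by 0.35, and 3113 and 2888 with quantile normalization. Over the 5137 mRNAs with a mean of at least 10 RPKM, the library medians of T3 and T1 differed by −0.11. The median of the 9 genes was −0.38, against 0.01 for all mRNAs. *tal1*, *spi1b*, *gata1a* and *runx1* were not called with both T1 libraries. Without either T3 library *klf17* alone stayed called, in fits that take the spread from the T1 libraries alone. Between the fits that leave out 1 library the number of calls over all mRNAs moved as well.

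**Figure D3:**
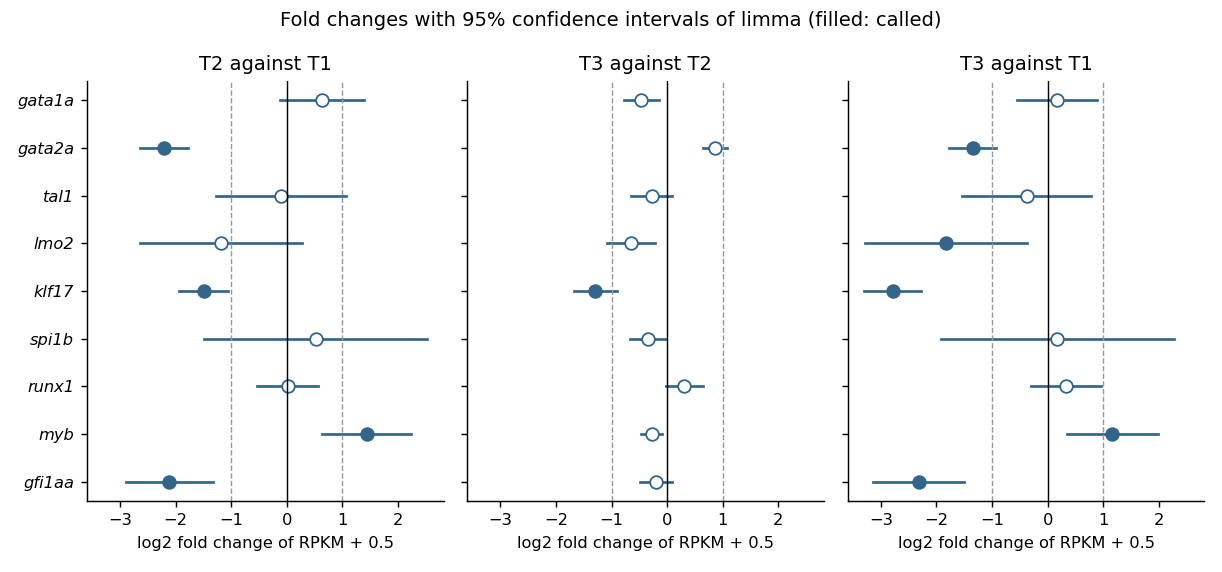
Log2 fold changes of RPKM + 0.5 for the 9 genes in the 3 comparisons, with 95% confidence intervals of limma. Filled points are calls and dashed lines mark a log2 fold change of 1 in size. The intervals of *spi1b*, *tal1* and *lmo2* are wide in both comparisons with T1 and narrow at T3 against T2.

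**Figure D4:**
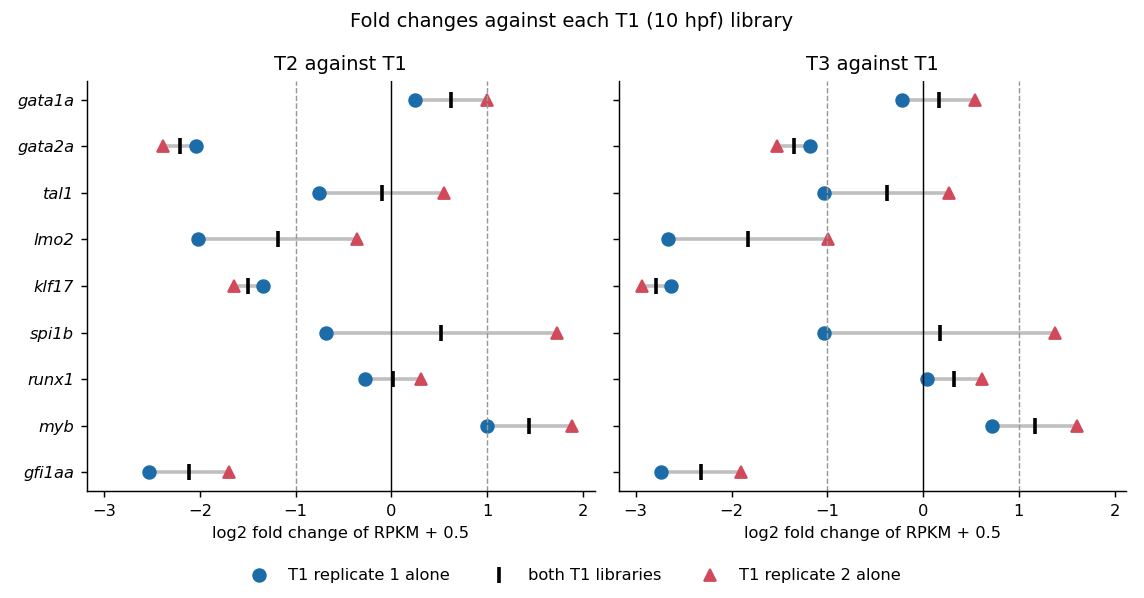
Log2 fold changes at T2 and T3 against T1 with both T1 libraries (ticks), with replicate 1 alone (circles) and with replicate 2 alone (triangles). *spi1b* spans −0.68 to 1.72 at T2 and −1.03 to 1.38 at T3, while *gata2a*, *klf17* and *gfi1aa* stay below −1 throughout.

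The order of the 9 genes by level changed with stage. Levels are given here as the mean RPKM per length of the chromosome copy, so that *gata1a* and *myb* count with 1 copy. At T1 *klf17* (18.0 RPKM) was highest, above *gata2a* (10.3) with no overlap of their libraries. *lmo2*, *tal1*, *myb*, *gfi1aa*, *spi1b* and *gata1a* followed from 9.58 to 0.951, each overlapping the gene before it, and *runx1* (0.243) was last. At T2 *myb* (11.5) led, followed by *klf17* (6.07). *tal1* (3.91), *lmo2* (3.34) and *spi1b* (3.07) then overlapped in turn, and so did *gata1a* (1.92) and *gata2a* (1.83), while *gfi1aa* (0.354) and *runx1* (0.238) were separate. At T3 *myb* (9.30) led again, above *gata2a* (3.73) and *tal1* (3.09). *spi1b* (2.31), *klf17* (2.19) and *lmo2* (1.93) overlapped in turn, and *gata1a* (1.11), *runx1* (0.420) and *gfi1aa* (0.243) were separate. How reads of second copies were counted bears on the places of *myb* and *gata1a*.

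Each gene was then compared with 15444 or 15445 mRNAs of at least 1 RPKM on average by the root mean square (RMS) difference of their centred log2 values over the 6 libraries. These are descriptions over libraries that share their stages. The 3 mRNAs nearest to *gata2a* were *gata3* (RMS 0.18, Pearson's r = 0.98 over the 6 libraries), its close GATA relative, the fibronectin gene *fn1b* (0.24) and the acid ceramidase gene *asah1a* (0.26). *gata3* had 27.0 and 41.3 RPKM at T1, 8.03 and 7.68 RPKM at T2 and 11.7 and 10.8 RPKM at T3, so that it too was lowest at T2. Its ratio to *gata2a* stayed between 2.77 and 4.33 in all 6 libraries. The nearest named genes to *gfi1aa* were *krt18* (0.18), a keratin gene of simple epithelia with a mean of 548 RPKM at T1, 111 RPKM at T2 and 84.1 RPKM at T3, and *hsd17b2* (0.19).

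*znrf2a* (0.06) and *tep1* (0.10) were near *klf17*, and *dachb*, *ccdc125* and *rasa4* (0.04 to 0.06) near *myb*. *uprt*, *sfrp5* and *gde1* (0.06 to 0.07) were near *gata1a*, and *ube2a*, *glg1b* and *nkiras1* (0.07 to 0.08) near *runx1*. The pseudocount flattens the profiles of the low genes *gata1a* and *runx1*, and many genes lie near a flat profile. For *tal1*, *lmo2* and *spi1b* the named neighbours were *hdac12* (0.11), *znf569l* (0.26) and *l3hypdh* (0.19). In all, 19 of the 27 neighbours carry a gene symbol and the other 8 a clone or locus identifier. None of the 27 was one of the 9 genes. *gata1a* and *runx1* lay below the limit of 1 RPKM on average and could not be neighbours. With so few of the 9 genes among so many mRNAs, their absence says little.

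Partner and paralog factors included upregulated genes in T2 embryos. Of 33 tested at T2 against T1, 9 were upregulated and 2 downregulated, with a median log2 fold change of 0.36 beside 0.08 for all mRNAs. The largest changes were those of *ikzf1* (2.22), a lymphoid and myeloid zinc finger factor, *gata3* (−2.02), *npas4l* (−1.82) and *fli1b* (1.63), an ETS factor of vessels. *npas4l*, the *cloche* gene that acts at the top of the blood and vessel program in zebrafish, had 3.91 and 4.36 RPKM at T1, 0.698 and 0.939 RPKM at T2 and 0.356 and 0.485 RPKM at T3. *ikzf1* had 0.0783 RPKM in T1 replicate 1 and no read in T1 replicate 2, which allows up to 0.0226 RPKM, and 2.42 and 1.64 RPKM at T2. At T3 against T2, 1 was upregulated (*tal2*, 1.06) and 1 downregulated (*drl*, −1.78), of 34 tested with a median of −0.17. At T3 against T1, 7 were upregulated and 5 downregulated of 33 (median 0.12). The upregulated ones included *tal2* (2.37) and *ikzf1* (1.74). The downregulated ones were *npas4l* (−2.33), *etv2* (−1.72), an ETS factor of vessel precursors, *gata3* (−1.53), *drl* (−1.08) and *cebpa* (−1.07), a factor known from granulocytes.

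Some close relatives of the 9 genes had other courses than the gene itself. *klf1*, the Krüppel-like factor of red cells known from mammals, had 0.182 and 0.105 RPKM at T1, 1.21 and 1.1 RPKM at T2 and 1.14 and 1.28 RPKM at T3. Its log2 fold change at T2 against T1 was 1.37 (limma adjusted *p* = 0.00451), opposite in sign to that of *klf17*. The ratio of *klf17* to *klf1*, per length, was 88.6 and 190.0 in T1 embryos, then 5.52 and 4.94 in T2 embryos, then 2.25 and 1.43 in T3 embryos. *spi1a*, the second PU.1 gene of the zebrafish, had 0.0596 and 0.0383 RPKM at T1, 0.787 and 0.781 RPKM at T2 and 0.755 and 0.819 RPKM at T3. Its T1 values lie near the limit of 3 counts, 0.0298 RPKM in T1 replicate 1. Too few reads are thus left to tell whether *spi1a* had a gap like that of *spi1b*. *gfi1b* had 0.324 and 0.491 RPKM at T1, 1.77 and 1.55 RPKM at T2 and 0.921 and 1.05 RPKM at T3, and was upregulated at T2 against T1 by 1.26 (limma adjusted *p* = 0.00785), while *gfi1aa* was downregulated. *gata1b* and *gata2b* stayed at or below 0.304 and 0.166 RPKM in all 6 libraries. These relatives were chosen for naming after their values had been seen, except where the list's largest changes gave them.

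Most erythroid effector genes were upregulated after T1. Of 22 tested at T2 against T1, 18 were upregulated and 2 downregulated (median 2.99), with *hbbe3* (7.73), *hbbe1.2* (5.95), *hbae3* (5.51) and *hbbe1.3* (5.35) at the top. The 2 downregulated genes were *cahz* (−1.28), a carbonic anhydrase gene, and *nt5c2l1* (−1.01). From T2 on, 8 were upregulated at T3, among them *hbae1.3* (1.60), *hbbe1.1* (1.51), *rhag* (1.43) and *hbbe1.3* (1.32), and 1 was downregulated, the heme synthesis gene *urod* (−1.19), with a median of 0.39. *gata1a* was not called in either comparison. At T3 against T1, 16 were upregulated and 1, *nt5c2l1* (−1.17), was downregulated of 22, with a median of 3.11, and *hbbe3* (8.26) changed most.

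Among myeloid effector genes, more were upregulated than downregulated in each comparison. Of 14 tested at T2 against T1, 6 were upregulated, led by *mfap4* (3.76), *ncf1* (2.43) and *coro1a* (1.98), and *lcp1* (−2.26) was downregulated (median 0.92). *lcp1* had 11.9 and 10.9 RPKM at T2, against 93.0 and 34.1 RPKM at T1, and its T1 gap ran in the same direction as that of *spi1b*. Of the 5 genes of the list over 0.1 RPKM in both T1 libraries, no other was over 2-fold apart, and their median log2 difference was 0.04. In T3 embryos against T2, 6 of 17 were upregulated and none downregulated (median 0.39), with *mpx* (2.15), *lyz* (1.95), *lect2l* (1.87) and *srgn* (1.43) at the top, which are known from granulocytes. *spi1b* had a log2 fold change of −0.35 in the same comparison. At T3 against T1, 11 of 16 were upregulated and *lcp1* (−2.47) was downregulated, with a median of 1.59.

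Defining markers of thrombocytes and lymphocytes were low. The thrombocyte genes *itga2b*, *mpl* and *thpo* stayed below 0.1 RPKM in every library. Of 3 tested genes of their list *itgb3a*, an integrin gene, alone was called, upregulated at T2 against T1 (2.15) and at T3 against T1 (2.83), with 1.77 and 1.87 RPKM at T2 and 3.33 and 3.09 RPKM at T3. None of the lymphoid genes tested, 4 at T2 against T1, 3 at T3 against T2 and 4 at T3 against T1, was called. *rag1* had at most 0.347 RPKM and *lck* at most 0.138 RPKM, and 7 lymphoid genes together had between 0.395 and 0.841 RPKM in a library.

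Because several of the 9 genes are known from other cells, markers of those cells are given beside them. *tal1*, *lmo2* and *gata2a* are active in vessel precursors. Of 22 endothelial genes, 15 were upregulated and 2 downregulated (*kdr*, −1.28, and *aplnrb*, −1.25) at T2 against T1 (median 1.40), led by *cdh5* (3.61), *stab2* (2.96), *clec14a* (2.71) and *she* (2.33). At T3 against T2 none of 21 was upregulated and *tek* (−1.14) was downregulated (median −0.14), and at T3 against T1 13 were upregulated and *kdr* (−2.11), *aplnrb* (−1.35) and *aplnra* (−1.07) were downregulated (median 1.32). The summed level of the list was 38.1 and 30.9 RPKM at T1, 79.6 and 74.0 RPKM at T2 and 66.7 and 66.6 RPKM at T3. It was thus higher at T2 and T3 than at T1. *gata2a* was downregulated at both of these stages against T1. *lmo2* was downregulated at T3 only, in a call close to its limits, and its T2 value of −1.19 was no call.

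*klf17* is known from the hatching gland too. Of 8 hatching gland genes, 5 were upregulated at T2 against T1 and none downregulated (median 1.60), among them *he2* (3.17), *he1b* (2.29), *agr2* (2.17) and *he1a* (2.11), genes of the hatching enzymes except for *agr2*. At T3 against T2, *he2* (−2.17) and *prdm1a* (−1.06) were downregulated (median −0.27), and at T3 against T1 4 were upregulated and *prdm1a* (−1.98) was downregulated (median 0.78). *prdm1a* had 24.6 and 26.8 RPKM at T1, 14.3 and 12.6 RPKM at T2 and 6.12 and 6.18 RPKM at T3. It was lower at each later stage, as *klf17* was, unlike the 5 genes of the list upregulated at T2 against T1. The list's summed level was 223 and 189 RPKM at T1, 325 and 348 RPKM at T2 and 312 and 296 RPKM at T3.

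*gata2a*, *gata3* and *tal1* mark GABAergic KA and V2b interneurons of the spinal cord. The 11 genes listed for these cells include some, such as *gad1b*, *gad2* and *slc32a1*, that are not particular to them. Of these 11, 6 were upregulated and *gata3* downregulated at T2 against T1 (median 1.03), with *slc32a1* (1.47), *tal2* (1.3) and *gad2* (1.21) among the largest. In T3 against T2 embryos, 5 were upregulated and none downregulated (median 0.82), *foxn4* (1.75), *gad2* (1.28), *slc32a1* (1.12) and *gad1b* (1.06) leading. *gata2a* was higher by 0.86 in the same comparison, without a call. At T3 against T1, 7 were upregulated and *gata3* was downregulated (median 1.48). In both comparisons with T1 *gata2a* went against the median of the list, with −2.21 at T2 and −1.35 at T3. Of 6 hair cell genes, where the mouse relative of *gfi1aa* acts, 3 were upregulated at T2 against T1 and 5 at T3 against T1, none at T3 against T2, and none was downregulated in any of the 3. The hair cell factor gene *pou4f3* itself stayed at or below 0.208 RPKM. The part of these cells in the levels of the 9 genes was not tested.

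**Figure D5:**
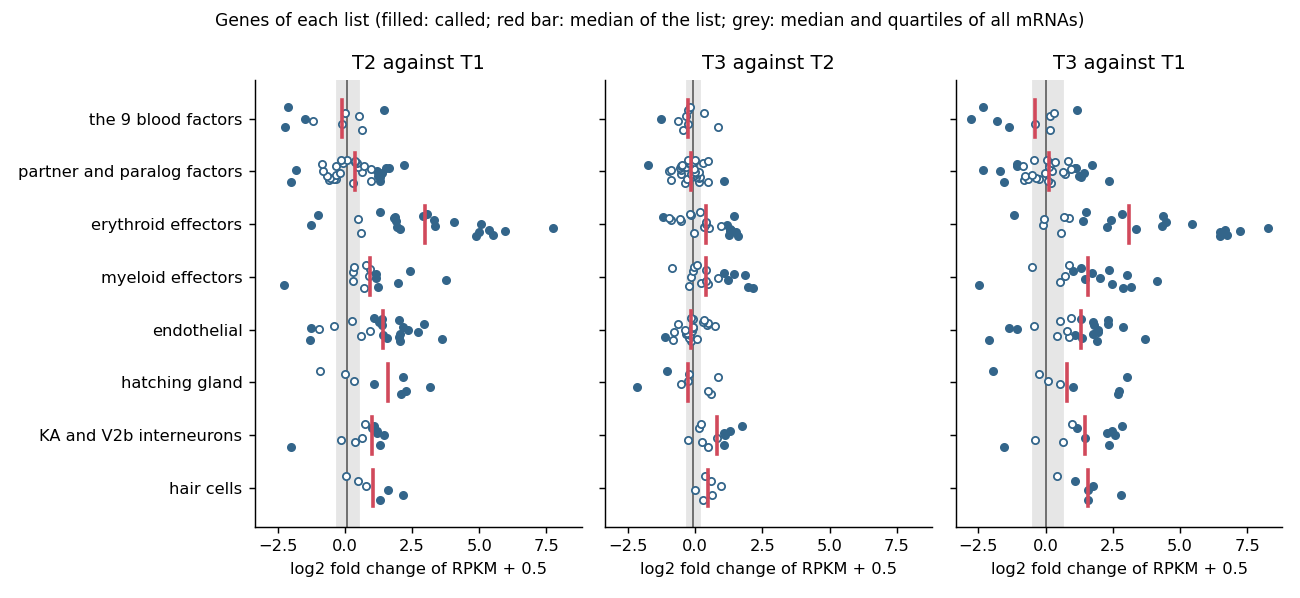
Log2 fold changes of RPKM + 0.5 of the genes of 8 lists in the 3 comparisons. Filled points are calls, red bars are the medians of the lists, and the grey line and band are the median and quartiles of all mRNAs tested. At T2 against T1 the erythroid effector genes have a median of 2.99, while the 9 blood factors have a median of −0.10.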

How the data were processed

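RNA of zebrafish embryos was measured in 6 libraries, 2 per stage. The authors made the deposited RPKM values from reads aligned to GRCz11. STAR 2.5.3a and Subread featureCounts 1.5.1 stand in the submitters' processing notes, and whether strand was used in counting is not stated in them. Of the columns of values, 0 had no sample. Multiplied by exon length, 100% of values came out as whole reads (tolerance 0.01 read). Exons of 5756 genes are annotated on a chromosome and on another sequence.

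Log2(RPKM + 0.5) was tested with limma 3.58.1 (lmFit, contrasts.fit, eBayes with trend and robust, through statmod 1.5.0) in R 4.3.3, with stage as the only term, on the 4 libraries of each pair of stages. The test was tested on simulated data. Tables were made with Python 3.11.15, numpy 2.4.6, pandas 2.3.3, scipy 1.17.1 (exact Clopper-Pearson intervals) and matplotlib 3.10.9. The 9 genes and the lists were chosen with earlier results of these data known. All 9 genes are named, with 3 neighbours each, up to 4 called genes of a list with the largest change, and genes called against most of their list. *hbae1.1*, *spi2*, *plvapb*, *he1.1* and *he1.2* were not matched in the table. No promoter or protein sequence was used here. Alternatives were other pseudocounts, filters, scalings, fits and thresholds, voom on recovered reads, a replicate block, single libraries left out, and, chosen after seeing the data, the exon length of the chromosome copy.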

Additional observations from a re-analysis of the deposited data

How the results depend on the processing

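With 2 libraries per stage, single libraries decide many values. Leaving out each library in turn gave 0 to 6 of the 9 genes called at T2 against T1, 1 to 1 at T3 against T2 and 1 to 6 at T3 against T1, and 12 to 4611, 1306 to 1689 and 3446 to 6721 mRNAs. A fit left with 1 library of a stage assumes that it varies like the other stage. Directions turned for *tal1* (−0.75 to 0.55), *spi1b* (−0.68 to 1.72) and *runx1* (−0.27 to 0.31) at T2 against T1, and for *gata1a* (−0.22 to 0.54), *tal1* (−1.03 to 0.27) and *spi1b* (−1.03 to 1.38) at T3 against T1.

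Quantile normalization and median centring turned *runx1* at T2 against T1 (−0.26 and −0.32), and *gata1a* (−0.25 and −0.19), *spi1b* (−0.16 and −0.18) and *runx1* (−0.012 and −0.024) at T3 against T1, all without a call. limma voom called 5734 mRNAs at T2 against T1, 3437 at T3 against T2 and 8680 at T3 against T1, beside 3748, 1421 and 5994, and 2 of the 9 genes at T3 against T2. A pseudocount of 0.1 or 1 RPKM gave 2818 or 932 mRNAs at T3 against T2. *lmo2* at T3 against T1 lost its call without a filter (limma adjusted *p* = 0.0599) and with voom (0.0562). A filter at 1 RPKM left 20 of the 27 values of single genes, all with the same call. The exon length of the chromosome copy changed no call. The cause of these changes was not tested.

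Deviations of libraries with the same replicate number correlated with r of 0.08, −0.01 and −0.02 between stages, so that the numbers name the samples only. With the replicate block, *lmo2* was called at T2 against T1 (limma adjusted *p* = 0.0246), 5 of the 9 genes and 3868 mRNAs in all, and no other of the 27 calls changed.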
